A study of Homo sapiens with 12 samples.

Results

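The subunits of the oxidative phosphorylation machinery were followed in A375 human melanoma cells with and without knockdown of ALKBH5. Members were the genes of the deposited expression table whose symbols carry the stems of the NDUF, SDH, UQCR, COX and ATP5 families or of the subunits encoded in mitochondrial DNA. The rule used names only and no measured value. It gave 96 genes of 29696 in the table, of which 83 are nuclear-encoded and 13 are mitochondrially encoded. Another 33 symbols with a pseudogene ending were left out, while MT-ATP6 and MT-ATP8, whose names end in the same letter pattern, are protein-coding genes and were kept. COX4I2, COX6A2, COX7A1 and COX7B2, tissue-restricted forms of complex IV subunits, were not analysed here.

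Oxidative phosphorylation takes place in the inner mitochondrial membrane. Complex I (NADH dehydrogenase) and complex II (succinate dehydrogenase) pass electrons to ubiquinone, complex III (cytochrome bc1) passes them to cytochrome c, and complex IV (cytochrome c oxidase) passes them to oxygen. The proton gradient that complexes I, III and IV build drives complex V, the ATP synthase. Most subunits are encoded in the nucleus and imported, while mitochondrial DNA encodes a small hydrophobic core of complexes I, III, IV and V, and complex II is wholly nuclear-encoded. Melanoma cells can shift between glycolysis and oxidative phosphorylation, and the regulator MITF is known to raise respiratory genes through PPARGC1A in part of them.

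The study compared 2 groups of A375 cells, an established line from a human skin melanoma. In shALKBH5 cells a short hairpin RNA against ALKBH5, an eraser that removes the methyl mark N6-methyladenosine (m6A) from RNA, was brought in by lentivirus. In shCtrl cells, labelled wild type, the virus carried a scrambled hairpin, so both groups were infected. The study's RNA-Seq methods give a harvest 48 h after infection, while its methods for the m6A precipitation give no time. Each group had 3 input libraries of poly(A)-selected RNA and 3 libraries of RNA precipitated with an m6A antibody (IP), from 1 cell line. The labels give no other treatment, while the study's methods for its knockdown lines describe selection of infected cells with puromycin. The labels do not say which ALKBH5 hairpin was used or whether replicates were separate cultures, so p-values measure the spread between these libraries, which may be technical. Expression was deposited as FPKM, a fragment number scaled by the authors to transcript length and to the mapped fragments of the library. On that scale levels of different genes can be set side by side. That holds only as far as poly(A) selection captured their RNAs alike, which was not measured. Read depth is unknown, and no counting interval is given for expression.

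ALKBH5 gave 19.3, 17.8 and 17.6 FPKM in the 3 shCtrl libraries and 3.39, 3.92 and 3.12 FPKM in the 3 of shALKBH5, so the targeted gene was lower in every knockdown library. Its log2 fold change was -2.36 with a standard error of 0.0887 (limma, Benjamini-Hochberg adjusted p = 1.28e-06), and the exact two-sided permutation test gave p = 0.1, the smallest that 3 against 3 libraries allow. Of the melanoma markers, SOX10 stood at a mean of 182 FPKM and S100B at 57.5 FPKM, while MITF stood at 1.02 FPKM and the pigment genes PMEL, DCT and TYR at 0.424, 0.0312 and 0.00994 FPKM. MLANA, the last of the 8 markers listed, was not analysed here. S100B, S100A1 and MITF rose (log2 fold changes 1.32, 1.21 and 0.63). Markers of other cells were low. KRT14 (keratinocytes) stood at 0.665 FPKM and fell by 1.22, COL1A1, PDGFRA and DCN (fibroblasts) stood between 0.239 and 0.501 FPKM, and CD14 (leukocytes), PECAM1 and CDH5 (endothelium) at or under 0.139 FPKM, while KRT1, KRT5, PTPRC and CD3E were not analysed here. The part of these marker levels in the results was not tested.

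The test was limma's on log2(FPKM + 0.1), run over the 12985 genes whose mean in the 6 input libraries reached 0.5 FPKM, and every fold change is on that scale, shALKBH5 over shCtrl. Called means a Benjamini-Hochberg adjusted p under 0.05. Of the 96 members, 92 were tested, and their means ran from 1.08 FPKM for NDUFA5, an accessory subunit of complex I, to 513 FPKM for ATP5F1B, the catalytic beta subunit of ATP synthase. Among them 43 rose and 13 fell, while 36 were not called. The share called, 60.9%, was near the 61.0% called among all genes tested. By direction it differed from that background, since 46.7% of tested members rose against 34.7% of all genes and 14.1% fell against 26.2%. The libraries of both groups did not overlap for 66 of the 92 (71.7%), against 67.0% of all genes tested. Ignoring sign, the median log2 fold change was 0.23 in members and 0.36 in all genes. The median signed change was 0.13 in members and 0.09 in all genes tested. With libraries rescaled by their median ratio to a common reference, 32 members rose and 16 fell, so that 66.7% of calls were rises instead of 76.8%. The same rescaling called 29.3% of all genes higher and 29.9% lower, so that 49.4% of their calls were rises. In these bulk libraries more RNA per cell and more cells that express a gene cannot be told apart.

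Nuclear-encoded and mitochondrially encoded subunits gave different counts. Of 79 tested nuclear-encoded members 42 rose and 9 fell, with a median log2 fold change of 0.19, and of the 13 mitochondrially encoded members 1 rose and 4 fell, with a median of -0.00. The nuclear shares were 53.2% higher and 11.4% lower, against 34.7% and 26.2% of all genes, and the mitochondrial shares were 7.69% higher and 30.8% lower, the latter near the background. The summed level of the nuclear-encoded members was 4784 ± 189 FPKM (SD, n = 3) in shCtrl and 5271 ± 22.2 FPKM in shALKBH5 cells, a ratio of 1.10. The summed level of the mitochondrially encoded members was 581 ± 40.0 FPKM in shCtrl and 574 ± 27.5 FPKM in shALKBH5 cells, which is 0.269 ± 0.0194% and 0.258 ± 0.0122% of all FPKM. The first sum made up 2.21 ± 0.0550% of all FPKM in shCtrl and 2.37 ± 0.00330% in shALKBH5 cells and did not overlap between groups as deposited, but it overlapped with median-ratio rescaling (ratio 1.05). As deposited, the difference of the second sum was smaller than either SD. With the rescaling that sum was 595 ± 39.2 FPKM in shCtrl and 558 ± 30.7 FPKM in shALKBH5 cells (ratio 0.938), a difference above the shALKBH5 SD and below the shCtrl SD, and the groups overlapped on both scales. These sums carry no test, and the difference between the nuclear and mitochondrial medians was not tested.

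**Figure D1:**
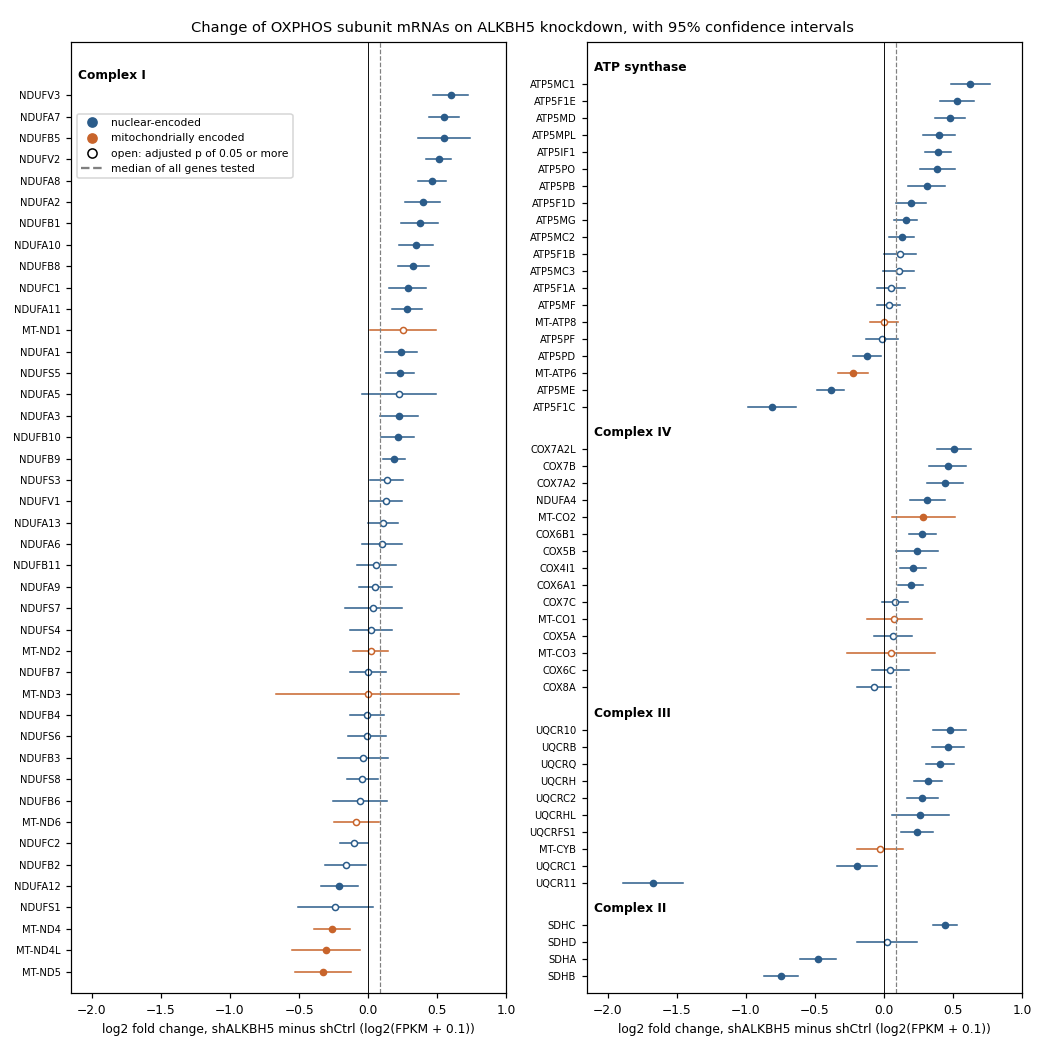
Log2 fold change (shALKBH5 over shCtrl, input RNA) of the tested members by complex, with its 95% interval (horizontal line). Blue is nuclear-encoded, orange mitochondrially encoded, open points were not called, and the dashed line is the median of all genes tested, 0.09. SDHB and ATP5F1C lie at -0.75 and -0.81, UQCR11 lies apart at -1.67, and the 13 mitochondrially encoded members lie between -0.32 and 0.29.

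By complex, the summed FPKM of nuclear-encoded members was higher in shALKBH5 cells for all but complex II, with no overlap between groups as deposited. Complex I summed to 1724 ± 65.2 FPKM in shCtrl and 1908 ± 7.02 FPKM in shALKBH5 cells, and complex III to 538 ± 22.6 and 620.1 ± 6.78 FPKM. Complex IV summed to 1171 ± 60.4 FPKM in shCtrl and 1293 ± 6.56 FPKM in shALKBH5 cells, and complex V to 1239 ± 43.9 and 1353 ± 15.9 FPKM. Complex II alone was lower, at 112 ± 1.96 FPKM in shCtrl and 97.2 ± 1.35 FPKM in shALKBH5 cells, a ratio of 0.870. When median-ratio rescaling was also applied to these sums, a step chosen after seeing the data, the groups overlapped for complexes I, IV and V (ratios 1.05, 1.05 and 1.04), while complex III (1.09) and complex II (0.827) stayed apart. A sum is led by its most abundant subunits, and it says nothing of the complex as assembled protein.

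**Figure D2:**
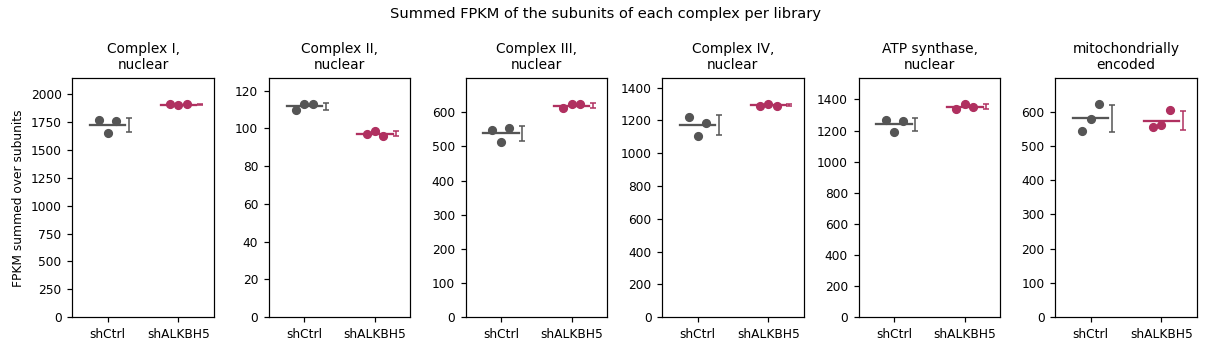
Summed FPKM (linear axes from 0) of the nuclear-encoded members of each complex, and in the last panel of the mitochondrially encoded members, in each input library (points), with the group mean (horizontal line) and SD (error bar, n = 3). The shALKBH5 libraries lie, as deposited, higher in complexes I, III, IV and V and lower in complex II, and the groups overlap in the mitochondrial panel.

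Complex I takes electrons from NADH through the flavin and iron-sulfur subunits of its matrix arm, around which many accessory subunits are arranged. All 36 nuclear-encoded members were tested, and 16 rose, 2 fell and 18 were not called. The share called was 50.0%, against 61.0% of all genes, and the share that rose was 44.4%, against 34.7%.

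NDUFV2, an iron-sulfur subunit of the NADH-oxidising module and 1 of the conserved core subunits, rose. Its values, given here as throughout in the order of replicates 1, 2 and 3, were 23.4, 23.2 and 23.3 FPKM in shCtrl and 32.7, 34.3 and 32.7 FPKM in shALKBH5 libraries. Every knockdown library lay above every control library (log2 fold change 0.51, standard error 0.0384, limma adjusted p = 2.75e-05). Core subunits that were not called were NDUFS1 with its iron-sulfur clusters (-0.24, adjusted p = 0.111), the flavin subunit NDUFV1 (0.13, adjusted p = 0.0505), NDUFS3 (0.13, adjusted p = 0.0522), and also NDUFS7 and NDUFS8 (0.04 and -0.04), all by limma. NDUFS1 was called lower (-0.31) with median-ratio rescaling and -0.36 without shCtrl replicate 1, and NDUFV1 and NDUFS3 were called higher (0.18 and 0.16) without that same library.

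NDUFV3, a small accessory subunit of the same NADH-oxidising module, rose most. Its level was 5.07, 5.00 and 5.18 FPKM in shCtrl and 7.44, 8.06 and 7.76 FPKM in shALKBH5 libraries, so the groups did not overlap (log2 fold change 0.60, standard error 0.0543, limma adjusted p = 6.71e-05). NDUFS5, an accessory subunit of the membrane arm, was the most abundant nuclear-encoded member of complex I, at 283, 265 and 291 FPKM in shCtrl and 333, 329 and 321 FPKM in shALKBH5 libraries. All knockdown libraries again lay above the controls (log2 fold change 0.23, standard error 0.0427, limma adjusted p = 0.00253). Among the other accessory subunits that rose were NDUFA7 and NDUFB5 (both 0.55), NDUFA8 (0.46), NDUFA2 (0.39), NDUFB1 (0.37), NDUFA10 (0.35), NDUFB8 (0.33) and, with one of the smaller rises, NDUFB9 (0.18, a call lost with median-ratio rescaling). NDUFA12, another accessory subunit, fell (-0.21, limma adjusted p = 0.0153), a call that was lost without shALKBH5 replicate 1 or without shCtrl replicate 3. NDUFA7 lies opposite RPS28, a ribosomal protein gene that stood at 152 FPKM in shCtrl and 195 FPKM in shALKBH5 cells and rose by 0.36. The library kit marks strand, but whether counting used it is not given in the sources used here, so reads of such antisense neighbours cannot be told apart. In all, 28 members overlap another tested entry on either strand. Among them are NDUFB8, opposite HIF1AN at a mean of 14.0 FPKM, and NDUFS3, opposite CELF1 at 18.3 FPKM.

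**Figure D3:**
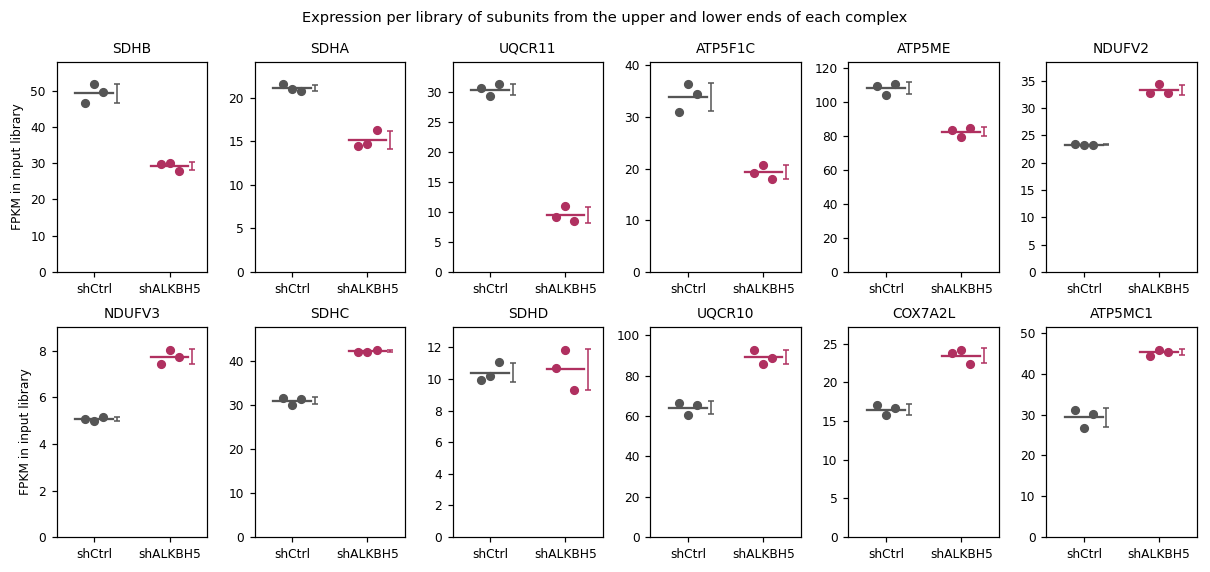
FPKM of 12 nuclear-encoded members in each of the 6 input libraries (points, 1 panel a gene, linear axis from 0), with the group mean (horizontal line) and SD (error bar, n = 3). The groups overlap for SDHD and for none of the other panels, with SDHB, SDHA, UQCR11, ATP5F1C and ATP5ME lower and NDUFV2, NDUFV3, SDHC, UQCR10, COX7A2L and ATP5MC1 higher in shALKBH5 libraries.

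Complex II joins the citric acid cycle to the chain, and its 4 subunits did not move together. SDHB, the iron-sulfur subunit (ENSG00000117118, chromosome 1, 17018722 to 17054032, minus strand), stood at 46.4, 51.7 and 49.6 FPKM in shCtrl and 29.8, 30.1 and 27.9 FPKM in shALKBH5 replicates. The groups were far apart, with means of 49.2 ± 2.64 and 29.3 ± 1.16 FPKM (log2 fold change -0.75, standard error 0.0528, limma adjusted p = 2.02e-05). SDHA, the flavoprotein that oxidises succinate, fell from 21.5, 21.0 and 20.8 FPKM to 14.4, 14.7 and 16.3 FPKM, again without overlap (log2 fold change -0.48, standard error 0.0555, limma adjusted p = 2.32e-04). SDHC, which with SDHD anchors the enzyme in the membrane and binds haem, was the most abundant member of the complex in shALKBH5 cells and rose from 31.6, 30.0 and 31.4 FPKM to 42.0, 42.0 and 42.5 FPKM (log2 fold change 0.44, standard error 0.0377, limma adjusted p = 4.85e-05). SDHD gave 9.91, 10.2 and 11.1 FPKM in shCtrl and 10.7, 11.9 and 9.28 FPKM in shALKBH5 replicates. These values overlapped, and the 95% interval of the SDHD log2 fold change, -0.19 to 0.24, held 0 (limma adjusted p = 0.837). The catalytic pair SDHA and SDHB fell, and of the membrane anchors SDHC rose and SDHD was not called. None of these directions flipped for SDHA, SDHB or SDHC under any alternative.

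Complex III was the complex with the largest share of called members. All 9 nuclear-encoded members were called, against 61.0% of all genes, 7 higher and 2 lower, and its median log2 fold change was 0.28. UQCR11, its smallest subunit (ENSG00000127540, chromosome 19, 1597169 to 1605473, minus strand), had the largest change of all members. Its levels were 30.6, 29.2 and 31.2 FPKM in shCtrl and 9.18, 10.9 and 8.42 FPKM in shALKBH5 replicates. The knockdown libraries lay at 9.52 ± 1.29 FPKM against 30.3 ± 0.994 FPKM in the controls, and the decrease held under all 14 alternatives (log2 fold change -1.67, standard error 0.0920, limma adjusted p = 6.60e-06). The unnamed entry AC005943 overlaps UQCR11 on the same strand, at 1.77 FPKM in shALKBH5 and 2.42 FPKM in shCtrl cells, and was not called. UQCR10, another small subunit, rose most, from 66.4, 60.4 and 65.6 FPKM to 92.9, 86.0 and 88.5 FPKM, with all knockdown libraries above the controls (log2 fold change 0.48, standard error 0.05, limma adjusted p = 1.42e-04).

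The hinge protein UQCRH, which helps hold cytochrome c1, was the most abundant member of the complex. It stood at 225, 216 and 238 FPKM in shCtrl and 277, 285 and 286 FPKM in shALKBH5 replicates and rose (log2 fold change 0.32, standard error 0.0435, limma adjusted p = 5.23e-04). Its near-identical copy UQCRHL gave 4.67, 5.30 and 5.49 FPKM and 6.01, 5.82 and 6.80 FPKM. The groups did not overlap (log2 fold change 0.26, limma adjusted p = 0.0315), but the call was lost without shALKBH5 replicate 1 or 3 or shCtrl replicate 1 and under both rescalings, and reads may be shared with UQCRH, so UQCRHL is uncertain. UQCRC1, a large core protein on the matrix side, was the other member that fell, from 102, 87.0 and 92.6 FPKM to 79.5, 82.4 and 84.3 FPKM (log2 fold change -0.19, limma adjusted p = 0.0289). That call was lost without shALKBH5 replicate 1 or 2 or shCtrl replicate 3. Its partner core protein UQCRC2 rose by 0.28, the Rieske iron-sulfur protein UQCRFS1 by 0.24, and the small subunits UQCRB and UQCRQ by 0.47 and 0.41.

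The promoters of members that moved in opposite directions are shown here because letters known to bind regulators of respiratory genes can be read in them. Each window, from RefSeq on GRCh38.p14, runs from 250 bases before to 20 after the gene's start and is written 5′ to 3′ along the gene's strand, with motif matches in capitals. UQCR11 (chr19:1605443-1605712, minus strand) and SDHB (chr1:17054013-17054282, minus strand) fell, and UQCR10 (chr22:29767119-29767388, plus strand) rose.
UQCR11 promoter: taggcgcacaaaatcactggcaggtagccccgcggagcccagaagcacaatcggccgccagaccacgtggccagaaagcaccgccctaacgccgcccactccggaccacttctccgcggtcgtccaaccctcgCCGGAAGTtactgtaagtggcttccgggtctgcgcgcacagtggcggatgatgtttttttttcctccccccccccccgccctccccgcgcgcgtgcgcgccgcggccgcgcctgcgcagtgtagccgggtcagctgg
SDHB promoter: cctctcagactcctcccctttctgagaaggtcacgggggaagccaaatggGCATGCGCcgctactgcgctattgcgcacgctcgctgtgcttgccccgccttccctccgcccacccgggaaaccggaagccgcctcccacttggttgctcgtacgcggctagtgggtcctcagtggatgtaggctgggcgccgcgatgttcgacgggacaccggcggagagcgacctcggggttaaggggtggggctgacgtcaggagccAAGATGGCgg
UQCR10 promoter: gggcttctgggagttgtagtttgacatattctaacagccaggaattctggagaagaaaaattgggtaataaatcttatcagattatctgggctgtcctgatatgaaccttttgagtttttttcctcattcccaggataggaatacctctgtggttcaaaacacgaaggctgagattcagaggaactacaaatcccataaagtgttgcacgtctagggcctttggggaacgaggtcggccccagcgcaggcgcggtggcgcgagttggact
The capitals mark an ETS-type match (CCGGAAGT) in UQCR11 and an NRF1-type (GCATGCGC) and a YY1-type match (AAGATGGC) in SDHB. UQCR10 has none of these letters in its window, which says nothing of the factors themselves.

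Complex IV holds small nuclear-encoded subunits around a mitochondrially encoded core, and no member of it fell in limma's test. Of 12 nuclear-encoded members tested, 8 rose, against 34.7% of all genes, and 4 were not called, with a median of 0.22, and at an unadjusted p under 0.05 none was lower either. COX8A, a short membrane subunit, was the most abundant at 372, 324 and 348 FPKM in shCtrl and 325, 337 and 331 FPKM in shALKBH5 replicates. These overlapped, with a log2 fold change of -0.07 (95% interval -0.20 to 0.05, limma adjusted p = 0.279), and COX8A was called lower at -0.12 without shCtrl replicate 2. COX7A2L, a factor that links complexes III and IV into supercomplexes, rose most, from 17.1, 15.7 and 16.6 FPKM to 23.8, 24.2 and 22.3 FPKM. All its knockdown values lay above the controls (log2 fold change 0.51, standard error 0.0520, limma adjusted p = 1.27e-04).

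Paired isoforms of complex IV had both forms listed for COX6B and COX8 only, besides COX7A2 and COX7A2L. COX7A2, the general form beside COX7A2L, rose from 64.5, 55.8 and 62.6 FPKM to 83.0, 82.6 and 82.5 FPKM (log2 fold change 0.44, limma adjusted p = 3.68e-04), and COX7B from 22.7, 23.7 and 25.7 FPKM to 32.0, 34.3 and 33.1 FPKM (0.46, adjusted p = 3.00e-04). COX4I1, the largest nuclear-encoded subunit, went from 90.1, 83.3 and 89.3 FPKM to 100.3, 101 and 102 FPKM (0.21, limma adjusted p = 0.00318), without overlap. COX6A1 stood at 186, 171 and 178 FPKM in shCtrl and 204, 204 and 203 FPKM in shALKBH5 replicates (0.19, limma adjusted p = 0.00383). The calls of COX4I1 and COX6A1 were lost with median-ratio rescaling, and COX6A1 has an expressed pseudogene, COX6A1P2, at a mean of 20.6 FPKM that may share its reads. COX6B1 rose from 157, 143 and 151 FPKM to 183, 179.8 and 184 FPKM (0.28, limma adjusted p = 7.70e-04). Its testis form COX6B2 was listed at 0 in each library of shCtrl and in shALKBH5 replicate 2, while shALKBH5 replicates 1 and 3 gave 0.0281 and 0.0738 FPKM. COX8C, the testis form of COX8, was listed at 0 except for 0.114 FPKM in shALKBH5 replicate 3. NDUFA4, named for complex I but a subunit of complex IV, rose by 0.32.

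ATP synthase uses a rotating ring of c subunits in the membrane to drive its catalytic head. Of its 18 tested nuclear-encoded members 10 rose, 3 fell and 5 were not called, with a median log2 fold change of 0.15, and of all genes 34.7% rose and 26.2% fell. In the head and central stalk, ATP5F1B gave 517, 459 and 501 FPKM in shCtrl and 524, 536 and 543 FPKM in shALKBH5 replicates. The groups did not overlap, but the beta subunit was not called (log2 fold change 0.12, standard error 0.0490, limma adjusted p = 0.0696) except without shCtrl replicate 1 (0.16). The alpha subunit ATP5F1A was not called either (0.05). ATP5F1C, the gamma shaft that turns inside the head (ENSG00000165629, chromosome 10, 7788147 to 7807815, plus strand), fell most of all members of this complex. It stood at 31.0, 36.3 and 34.4 FPKM in shCtrl and 19.1, 20.7 and 18.1 FPKM in shALKBH5 replicates. The means were 33.9 ± 2.70 and 19.3 ± 1.35 FPKM, with a wide gap between groups (log2 fold change -0.81, standard error 0.0741, limma adjusted p = 7.15e-05). Its partners in the central stalk rose, ATP5F1E (epsilon) by 0.53 and ATP5F1D (delta) by 0.19, the latter not called with median-ratio rescaling.

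The c ring is made from 3 genes, whose mature proteins are the same. ATP5MC1 (ENSG00000159199, chromosome 17, 48892765 to 48895871, plus strand) rose from 31.1, 26.7 and 30.1 FPKM to 44.4, 45.9 and 45.3 FPKM, which was the largest rise among members. Means were 29.3 ± 2.27 and 45.2 ± 0.764 FPKM (log2 fold change 0.63, standard error 0.0596, limma adjusted p = 8.54e-05). ATP5MC2, the most abundant of the 3, gave 64.6, 60.2 and 62.8 FPKM in shCtrl and 67.9, 69.4 and 68.1 FPKM in shALKBH5 replicates (0.13, limma adjusted p = 0.0207), and that call was lost whichever shALKBH5 replicate was left out, without shCtrl replicate 3, and with median-ratio rescaling, which moved it to 0.06. ATP5MC3 gave 22.8, 20.9 and 22.6 FPKM and 23.2, 24.5 and 23.5 FPKM, which did not overlap but were not called (0.11, limma adjusted p = 0.0948). Differences in change between these 3 genes were not tested.

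In the stalk and membrane part, ATP5ME, the e subunit that helps join ATP synthases in pairs, fell from 109.5, 104 and 110.2 FPKM to 83.3, 79.5 and 84.6 FPKM (log2 fold change -0.39, standard error 0.0414, limma adjusted p = 1.56e-04). The peripheral stalk, which holds the head still, gave 2 subunits higher and 1 lower of 4. ATP5PO rose by 0.39 and ATP5PB by 0.31, ATP5PD fell by 0.12 (limma adjusted p = 0.0385) and ATP5PF was at -0.01 and not called. ATP5PD lost its call without shALKBH5 replicate 1 or 3 and without shCtrl replicate 2 or 3, and ATP5PB lies opposite WDR77, which rose by 1.21. ATP5MD and ATP5MPL, small membrane subunits, rose by 0.48 and 0.40, and ATP5IF1, the inhibitor that stops the enzyme from running backwards, by 0.39. ATP5MGL and the readthrough entry ATP5MF-PTCD1 were too low to be tested.

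The promoters of ATP5F1C (chr10:7787927-7788196, plus strand) and ATP5MC1 (chr17:48892537-48892806, plus strand) are shown as the pair of this complex with the largest fall and the largest rise.
ATP5F1C promoter: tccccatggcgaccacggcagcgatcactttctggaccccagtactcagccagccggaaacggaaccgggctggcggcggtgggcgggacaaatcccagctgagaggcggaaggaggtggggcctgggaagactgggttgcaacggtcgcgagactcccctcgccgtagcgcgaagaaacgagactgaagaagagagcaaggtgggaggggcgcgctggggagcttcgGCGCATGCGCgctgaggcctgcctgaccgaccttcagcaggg
ATP5MC1 promoter: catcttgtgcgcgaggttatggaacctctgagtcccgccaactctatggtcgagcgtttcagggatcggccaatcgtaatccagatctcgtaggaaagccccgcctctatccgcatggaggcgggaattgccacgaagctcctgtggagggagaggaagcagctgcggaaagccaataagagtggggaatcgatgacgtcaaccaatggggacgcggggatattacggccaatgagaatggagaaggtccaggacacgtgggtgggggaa
Capitals in ATP5F1C mark 2 overlapping NRF1-type matches, 1 on each strand, and ATP5MC1 holds none of the 3 motifs. Both strands were searched for GCATGCGC, CCGGAAGT and AAGATGGC in the 47 members whose RefSeq start lay within 200 bases of the file's start, and in the windows of 6832 tested genes chosen alike. The NRF1-type letters were in 11 member windows (23.4%) and in 6.22% of all windows. The ETS-type letters were in 8 (17.0%) against 9.94%, and the YY1-type letters in 2 (4.26%) against 3.5%. At least 1 of the motifs was in 18 of the 47 member windows (38.3%) and in 18.1% of all windows, namely in 5 of 7 members that fell, in 5 of 25 that rose and in 8 of 15 that were not called. These are descriptions of letters in a window, with no test.

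The mitochondrially encoded subunits are transcribed together from long precursors on both strands of mitochondrial DNA, yet their levels spanned a wide range. By level the first was MT-CO1, the catalytic core of complex IV, at 109.8, 126 and 132 FPKM in shCtrl and 119.6, 126 and 142 FPKM in shALKBH5 replicates. MT-CO3 followed at 54.8, 68.9 and 78.3 FPKM and 69.2, 61.3 and 77.5 FPKM. Both overlapped between groups and were not called (log2 fold changes 0.07 and 0.05). MT-CO2, which takes electrons from cytochrome c, was the mitochondrially encoded member that rose, from 41.6, 54.7 and 53.2 FPKM to 61.0, 60.5 and 59.4 FPKM. It did not overlap (log2 fold change 0.29, standard error 0.0980, limma adjusted p = 0.0373), but the call was lost whichever shALKBH5 replicate was left out and under both rescalings.

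Of the complex I subunits, MT-ND4, a proton-pumping subunit, fell from 59.8, 62.4 and 63.8 FPKM to 48.4, 51.7 and 55.3 FPKM (log2 fold change -0.26, standard error 0.0559, limma adjusted p = 0.00508). MT-ND5, another pumping subunit, fell from 23.8, 21.2 and 26.6 FPKM to 17.9, 18.8 and 20.2 FPKM (log2 fold change -0.32, standard error 0.0866, limma adjusted p = 0.0136). MT-ND4L, whose reading frame overlaps that of MT-ND4, stood at 33.3, 33.3 and 40.0 FPKM in shCtrl and 25.1, 29.0 and 32.2 FPKM in shALKBH5 replicates. All 3 lay lower in every knockdown library, and the MT-ND4L call (log2 fold change -0.31, limma adjusted p = 0.0387) was lost without shALKBH5 replicate 1 or 2 and without shCtrl replicate 3. MT-ND2 gave 32.3, 31.4 and 35.2 FPKM in shCtrl and 33.1, 34.8 and 32.3 FPKM in shALKBH5 replicates. MT-ND1 gave 24.3, 18.9 and 23.5 FPKM and 25.1, 25.4 and 28.8 FPKM, with all knockdown values higher, and was not called (0.25, limma adjusted p = 0.0659). Without shCtrl replicate 1 it was called at 0.32. MT-ND3 gave 7.83, 4.61 and 10.0 FPKM and 9.22, 6.52 and 6.0 FPKM, the widest spread within groups relative to its level. MT-ND6, encoded on the opposite strand from the rest, was lowest at 4.21, 3.82 and 4.23 FPKM and 3.81, 3.72 and 4.00 FPKM. MT-ND2, MT-ND3 and MT-ND6 overlapped between groups and were not called.

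MT-ATP6, the subunit beside the rotating c ring, fell from 55.3, 54.8 and 57.7 FPKM to 45.3, 48.3 and 49.9 FPKM without overlap (log2 fold change -0.23, standard error 0.0469, limma adjusted p = 0.00446). MT-ATP8, whose reading frame overlaps that of MT-ATP6, gave 57.4, 52.2 and 55.4 FPKM in shCtrl and 55.3, 55.1 and 54.6 FPKM in shALKBH5 replicates and was not called. MT-CYB, the cytochrome b of complex III, gave 38.4, 46.6 and 42.9 FPKM and 41.8, 40.0 and 43.3 FPKM and was not called (-0.03). How counting split the overlapping MT-ATP8 with MT-ATP6 and MT-ND4L with MT-ND4 is not given in the sources used here, so these 4 levels are uncertain. In the order of levels, MT-CO3, MT-ND4, MT-CO2, MT-ATP8 and MT-ATP6 had ranges over the libraries that overlapped each other. That order, and levels set against nuclear-encoded genes, also depend on how fully poly(A) selection captured each RNA, which was not measured.

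**Figure D4:**
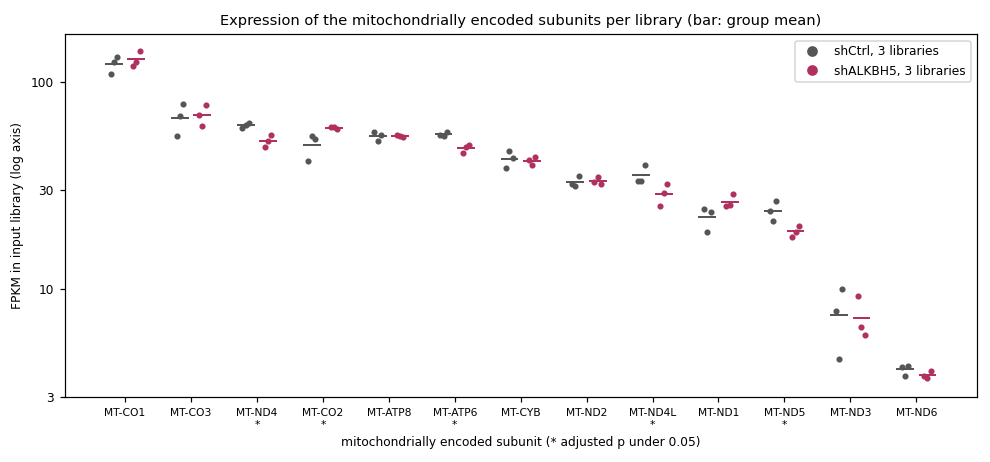
FPKM of the 13 mitochondrially encoded members in each input library (points, log axis), with the group mean (horizontal line, n = 3), ordered by level, and a star for an adjusted p under 0.05. MT-CO1 is highest, between 109.8 and 142 FPKM, MT-ND6 lowest, between 3.72 and 4.23 FPKM, and the groups overlap for 7 of the 13.

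Genes that build or feed the complexes were described from lists chosen by function, to be read against the 34.7% higher and 26.2% lower of all genes tested and their median of 0.09. Of 4 assembly factors of complex II all rose, SDHAF1 by 0.85, SDHAF2 by 0.80, SDHAF3 by 0.28 and SDHAF4 by 1.08, while the SDHA and SDHB that they serve fell. Of 20 complex I assembly factors 12 rose and 3 fell, with a median log2 fold change of 0.35. Of 25 for complex IV 16 rose and 2 fell, with a median of 0.38, among them the copper carrier SCO2 at 1.22 and the haem enzyme COX10 at -0.77. Of 6 complex III assembly factors none was called by limma and 1 passed at an unadjusted p under 0.05. Of 5 for complex V, FMC1 rose by 0.67 and ATPAF1 fell by 0.46. For the expression and upkeep of mitochondrial DNA, 9 of 18 genes rose and 4 fell, with a median of 0.27. SSBP1, which coats single-stranded mitochondrial DNA, fell by 2.48 (limma adjusted p = 2.40e-07), while the RNA polymerase POLRMT and the packaging factor TFAM were not called. Of the regulators, NRF1 (-0.30) and YY1 (-0.46) fell, ESRRA (0.51), PPRC1 (0.36) and GABPB1 (0.32) rose, and PPARGC1A was near 0 at 0.0371 FPKM. In the citric acid cycle 4 of 13 genes rose and 5 fell, among them SUCLG2 at -3.20. Outer membrane and import genes rose in 7 of 11 cases with none lower by limma, also at an unadjusted p under 0.05. Outside the name rule, the complex III subunit CYC1 rose by 0.38, the acyl carrier NDUFAB1 of complex I fell by 0.35, and cytochrome c (CYCS) was not called.

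For m6A, the authors deposited 1 peak list per group, so no value has a replicate error and no test was run. A peak's fold is its enrichment in IP over input as the peak caller gave it. Members held 149 of 46039 peaks in the shALKBH5 list and 150 of 44304 in the shCtrl list. At least 1 peak carried the name of 76 members in the first list and 78 in the second. Among tested members this was 80.4% and 83.7%, against 87.1% and 86.5% of all tested genes. Both lists had a peak for 73 members and neither for 15. Complex IV had a peak in 8 and 9 of its 14 nuclear-encoded members, and complex I in 31 and 33 of 36. Peaks of SDHD, ATP5MG and COX6B2 were in the shALKBH5 list only. The COX6B2 peak overlaps a shCtrl peak under another gene's name, and its input level is near 0. NDUFB1, NDUFB2, UQCRC2, COX5B and NDUFA4 had a peak in the shCtrl list only, with folds between 1.23 and 2.55.

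Peaks of members lay mostly in the 3′ UTR, in 91 of 149 (61.1%, 95% Wilson interval 53.1 to 68.5) of the shALKBH5 list and 85 of 150 (56.7%, 48.7 to 64.3) of the shCtrl list. Over all peaks those shares were 45.5% and 46.2%, but 19.1% and 18.1% of all peaks lie in exons of non-coding RNAs, where no member peak can lie. With peaks of fold 2 or more and FDR of 0.01 or less, the member shares were 54.7% (44.7 to 64.4) and 53.0% (42.4 to 63.4), and those of all peaks, 48.6% and 49.1%, lay within these intervals. Wilson intervals cover counting error only. In the shALKBH5 list 26 member peaks lay in the 5′ UTR, 18 in other exons and 14 in introns, and in the shCtrl list 31, 21 and 13. The median fold of member peaks was 3.06 and 2.81, under the 5.31 and 5.25 of all peaks. Of the shALKBH5 member peaks 82.6% (75.7 to 87.8) shared 1 base or more with a shCtrl peak of the same strand, against 78.1% of all peaks. The reverse overlap was 84.0% (77.3 to 89.0) against 81.3%. For 62 nuclear-encoded members with peaks in both lists, the highest fold was higher in shALKBH5 for 27 (43.5%, against 47.5% of 15910 genes with peaks in both lists) and lower for 35, with a median ratio over the 62 of 0.959 against 0.976 over those genes. For 17 of these 62 the highest peaks of the lists lay at different places, and over the other 45, whose highest peaks shared 1 base or more (any of those tied), the fold was higher for 19 (42.2%, against 45.5% of 11168 genes with overlapping highest peaks) and lower for 26, with a median ratio of 0.961 against 0.964. These shares lie near the background.

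**Figure D5:**
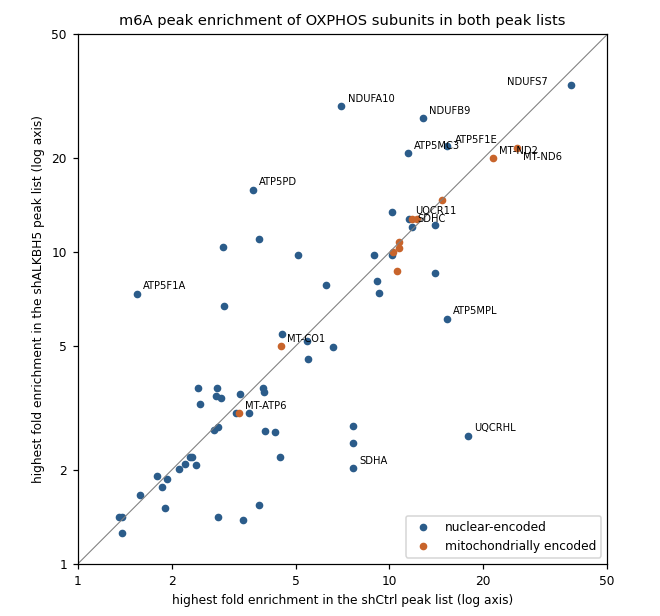
Highest peak fold (IP over input) of each member in the shCtrl list (x axis) and the shALKBH5 list (y axis), both on log scales, 1 point for each member with a peak in both lists, blue for nuclear-encoded and orange for mitochondrially encoded. Points scatter about the line of equal folds, with NDUFS7 highest and NDUFA10 above it (29.4 against 7.02) and UQCRHL below it (2.58 against 17.9). For 17 of the 73 members shown, ATP5PD and ATP5F1A among them, the values come from peaks that do not overlap, and those of UQCRHL share 1 base.

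The highest folds were those of NDUFS7, in an intronic peak on chromosome 19 from 1392056 to 1393194, at 34.3 in the shALKBH5 list and 38.3 in the shCtrl list. NDUFA10 had a 3′ UTR peak of 29.4 in the shALKBH5 list, on chromosome 2 from 239957782 to 239958471, and 7.02 at an overlapping peak of the shCtrl list. NDUFB9 stood at 26.9 and 12.8, ATP5F1E at 22.0 and 15.3, and ATP5MC3 at 20.8 and 11.5, each higher in the shALKBH5 list, as were ATP5PD at 15.9 and 3.64 and ATP5F1A at 7.35 and 1.55, whose highest peaks lie at different places in the 2 lists. The opposite held for an intronic peak of ATP5MPL, at 6.12 and 15.3, and for COX6C, whose 3′ UTR peak had the same span in both lists, at 2.45 and 7.66. COX7A2L had 8.57, at each of 2 peaks, and 14.0 at a longer peak that holds 1 of them. UQCRHL had a shCtrl peak of 17.9 that shares a single base with its shALKBH5 peak of 2.58, and the shCtrl peak over most of the latter had a fold of 1.75.

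Among the members that fell, UQCR11 had a 3′ UTR peak that starts at the same base in both lists, chromosome 19 from 1597169, with folds of 12.8 in shALKBH5 and 11.6 in shCtrl cells. ATP5F1C had 1 weak 3′ UTR peak of 1.51 in shALKBH5 and 1.90 in shCtrl cells, and no peak was named for SDHB or UQCRC1. SDHA had an overlapping 3′ UTR peak in both lists, at 2.03 and 1.55, and an intronic peak of 7.66 in the shCtrl list. Among those that rose, SDHC had a 3′ UTR peak of 12.1 and 11.8 and UQCR10 one of 4.98 and 6.58, while ATP5MC1 had none. SDHD, whose RNA level was not called, had 2 3′ UTR peaks of 18.4 and 3.45 in the shALKBH5 list only.

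Mitochondrially encoded members held 13 peaks by name in each list, and each of these peaks had exactly the coordinates of a member gene. Their folds ran from 3.04 to 21.6 in the shALKBH5 list and from 3.29 to 25.6 in the shCtrl list. MT-ND6 was highest at 21.6 and 25.6, followed by MT-ND2 at 20 and 21.5 and MT-ND1 at 14.7 in both. MT-CO1, the most abundant, stood at 5.00 and 4.5. Peaks at the positions of MT-ATP6, MT-CO3 and MT-ND4 carried the names MT-ATP8, MT-ATP6 and MT-ND4L, so counts of peaks by name understate MT-CO3 and MT-ND4, which have no peak under their own names.

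A further deposited table, of peaks compared between the groups, held 35 peaks of 28 members among its 6513 peaks, of which 22 lay in the 3′ UTR. Its comparison values were not used here.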

How the data were processed

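RNA-Seq input and MeRIP-Seq data of A375 cells were analysed, with samples grouped by their labels. The authors deposited expression as FPKM per input library. The aligner, counter, annotation and peak caller are not given in the sources used here. The submitters' processing notes name the build mm10 for these human cells, while member positions lie on the genes of GRCh38.p14. Each group has 1 peak list, in which the authors deposited a peak's fold (IP to input) and the log10 of its p and FDR, used as a score. The authors' own comparisons, with fold changes and p-values, were not used.

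Genes averaging 0.5 FPKM or more over 6 input libraries were tested with limma 3.58.1 in R 4.3.3 (lmFit, eBayes with trend, two-sided) on log2(FPKM + 0.1), with Benjamini-Hochberg adjustment. On simulated data in which 200 of 12985 genes were changed, the test recovered 51% of these, and 2.86% of its calls were false. A gene that was not called may therefore still have changed. The simulation changed far fewer genes than the 61.0% called in the data. Low values showed no steps of whole reads, so depth is unknown and 3 libraries per group limit the precision. Overlaps were computed with bedtools 2.31.1 and other steps with Python 3.11.15 (pandas 2.3.3, scipy 1.17.1). Named genes were all mitochondrially encoded members, in each complex the most abundant and the most changed nuclear-encoded ones, paired isoforms, the highest peaks and, added for roles, other members of the complex modules. Members and lists were chosen with earlier results of these data known. Alternatives covered pseudocount, filter, scaling, trend, replicate block, single libraries left out and peak thresholds. Values of 1 member, part of every count, are not reported here.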

Additional observations from a re-analysis of the deposited data

How the results depend on the processing

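Of 910 values for 65 named genes over 14 alternatives, 826 kept their direction and side of the threshold, 43 lost a call, 11 gained one and 30 changed sign, all 30 in genes that were not called. Higher and lower members numbered 38 to 48 and 9 to 14 when 1 library was left out. The median log2 fold change of nuclear-encoded members was 0.12 with median-ratio rescaling and 0.15 with libraries rescaled to the same sum outside mitochondrial DNA. That of mitochondrially encoded members was -0.0762 with median-ratio rescaling and ran from -0.0641 to 0.00712 with 1 library left out. With a reciprocal overlap of 50%, 66.4% of shALKBH5 and 65.3% of shCtrl member peaks were shared (all peaks 51.6% and 53.7%), and with peaks of fold 2 or more and FDR of 0.01 or less 80.0% and 90.4% were (all peaks 82.1% and 83.6%). Signs changed with median-ratio rescaling for ATP5F1A (-0.0207), MT-ATP8 (-0.0724), MT-CO3 (-0.0222), MT-ND2 (-0.0559), NDUFS7 (-0.0359) and SDHD (-0.0491), and with the other rescaling for MT-ATP8 (-0.0394), MT-ND2 (-0.0229), NDUFS7 (-0.00346) and SDHD (-0.0163). With 1 library left out, the log2 fold change ran from -0.0161 to 0.0657 for MT-ND2, -0.313 to 0.241 for MT-ND3, -0.102 to 0.0376 for MT-CYB, -0.00149 to 0.131 for MT-CO1, -0.0882 to 0.168 for MT-CO3, -0.0352 to 0.0328 for MT-ATP8, -0.0371 to 0.111 for NDUFS7, -0.0583 to 0.117 for SDHD and -0.0559 to 0.0121 for ATP5PF. The replicate numbers do not pair the samples, with correlations of deviations between same-numbered libraries of 0.018, -0.046 and 0.059, and the fit with a replicate block called 43 members higher and 11 lower, with, of the named genes, MT-ND1 gaining a call and ATP5MC2, ATP5PD and UQCRC1 losing theirs. With no filter on low values MT-CO2, MT-ND4L, UQCRC1 and UQCRHL lost their calls. With eBayes without trend ATP5MC2, ATP5PD, MT-CO2, MT-ND4L and UQCRC1 lost theirs. The cause of these changes was not tested. Unknown depth and 3 libraries per group limit what small changes can show.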
